A study of Mus musculus with 5 samples.

Results

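Runx3 and H3K4me1 peaks were examined at 8 genes that encode transcription factors of the natural killer cell (NKC) lineage: Tbx21, Eomes, Id2, Nfil3, Tox, Zeb2, Prdm1 and Gata3. The genes were taken by name, with earlier results of these data known. A peak was counted for a gene when it overlapped the gene or the 20 kb on either side of it. All 8 were found among 22350 protein-coding genes of the GENCODE M1 annotation on the 19 autosomes and chromosome X (mm9). They held 19 of 11676 Runx3 peaks and 63 of 34204 H3K4me1 peaks, and no Runx3 peak was counted for more than 1 of the genes.

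The peaks came from ChIP-seq of IL-2-activated NKC. Splenic NKC of ICR mice were purified by negative selection and kept for 7 days in 1000 units/ml of human recombinant IL-2, after which, per the labels, they were uniformly NKp46+. The methods of the study add a sort for DX5+ cells after this selection and describe nearly all cells as NKp46+ after culture. Chromatin of these cells was precipitated with a polyclonal antibody to Runx3 (2 libraries), with a monoclonal antibody to H3K4me1 (1 library) or with non-immune rabbit serum (NIS, 2 libraries), so all groups share the same strain and culture, and there was no Runx3-deficient control among the libraries used here. The labels list a single H3K4me1 library, although the methods of the study speak of repeats that were sequenced separately. The lists give the position of every peak, called for Runx3 on the joined reads of its libraries, and neither a height nor a value per library, so no count below has a replicate error and depth cannot be read from them. The methods of the study give fewer reads for H3K4me1 than for Runx3 in these cells. Unmarked below means that no H3K4me1 peak was called, which does not show that the mark was absent. The lists measure no expression, so the identity of the cells rests on the labels. How many mice gave the cells is not given in the labels.

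Runx3 is a Runt-domain transcription factor that binds DNA together with CBFβ, and the motif it reads was taken as the letters TGTGGT or their variants TGTGGC and TGCGGT and, with both changes, TGCGGC, on either strand. H3K4me1, monomethylation of lysine 4 on histone H3, marks enhancers, where it often flanks a nucleosome-poor centre, and is usually low right at active transcription start sites (TSSs), where trimethylation takes its place. The 8 factors act at successive steps of NKC development. Nfil3, Id2 and Tox are needed for NKC to develop, and the T-box factors T-bet (Tbx21) and eomesodermin (Eomes) drive maturation and effector genes. Zeb2 and Blimp-1 (Prdm1) act in terminal differentiation, and Gata3, best known from T helper and group 2 innate lymphoid cells, shapes NKC subsets.

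The sequences below show the RUNX motifs nearest to the centres of Runx3 peaks at these genes. Each is a window of 120 bases of the plus strand of the reference genome (mm9, not the genome of the ICR mice), placed around the RUNX motif nearest to the centre of a peak, with RUNX motifs in capitals. A motif that begins with ACC or GCC here lies on the minus strand. One window was taken from the peak nearest to the TSS and from the peak with most RUNX motifs of each gene, and 3 more (Tbx21 peak 1, Eomes peak 2, Id2 peak 2) were chosen after their values were seen. The windows of Id2 peak 3 and Prdm1 peak 2 touch an untranslated region and are not shown. In 3 of the windows, namely those of Tbx21 peak 1, Tbx21 peak 2 and Id2 peak 2, a pair of RUNX motifs stands with 9 bases between them.
Tbx21 peak 1, chr11:96990413-96990532: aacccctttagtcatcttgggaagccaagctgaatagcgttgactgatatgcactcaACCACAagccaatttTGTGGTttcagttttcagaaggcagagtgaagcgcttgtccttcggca
Tbx21 peak 2, chr11:96965669-96965788: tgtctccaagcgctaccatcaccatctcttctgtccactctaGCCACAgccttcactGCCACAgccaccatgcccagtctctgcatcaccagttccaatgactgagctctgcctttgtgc
Id2 peak 2, chr12:25781514-25781633: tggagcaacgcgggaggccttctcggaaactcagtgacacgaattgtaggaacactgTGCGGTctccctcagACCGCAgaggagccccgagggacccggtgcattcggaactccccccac
In the windows of Eomes peak 2 and Gata3 peak 1, the AP-1 motif TGACTCA or TGAGTCA is also in capitals. It stood 26 bases from the RUNX motif in Eomes peak 2 and 14 bases from the nearer RUNX motif in Gata3 peak 1.
Eomes peak 2, chr9:118397450-118397569: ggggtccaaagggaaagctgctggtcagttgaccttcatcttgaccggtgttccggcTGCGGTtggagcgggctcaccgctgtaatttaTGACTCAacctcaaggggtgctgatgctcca
Gata3 peak 1, chr2:9801269-9801388: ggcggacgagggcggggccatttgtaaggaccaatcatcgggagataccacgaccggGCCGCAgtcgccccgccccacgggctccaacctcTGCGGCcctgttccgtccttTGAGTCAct
The window in the first coding exon of Eomes and those of the other genes hold a single RUNX motif each.
Eomes peak 1, chr9:118388058-118388177: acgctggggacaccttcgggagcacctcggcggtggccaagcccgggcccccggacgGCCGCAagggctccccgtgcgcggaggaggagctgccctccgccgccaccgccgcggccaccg
Id2 peak 4, chr12:25777838-25777957: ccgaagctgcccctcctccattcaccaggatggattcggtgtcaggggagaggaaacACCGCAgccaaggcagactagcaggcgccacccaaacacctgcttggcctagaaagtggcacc
Nfil3 peak 3, chr13:53084570-53084689: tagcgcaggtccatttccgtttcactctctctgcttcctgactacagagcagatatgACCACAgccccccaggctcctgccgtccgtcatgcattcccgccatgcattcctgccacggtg
Nfil3 peak 4, chr13:53081725-53081844: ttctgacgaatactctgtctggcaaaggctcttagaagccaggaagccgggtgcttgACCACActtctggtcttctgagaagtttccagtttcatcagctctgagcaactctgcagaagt
Tox peak 1, chr4:6609181-6609300: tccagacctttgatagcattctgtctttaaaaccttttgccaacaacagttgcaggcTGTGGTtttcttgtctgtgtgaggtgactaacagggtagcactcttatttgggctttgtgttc
Zeb2 peak 1, chr2:44837463-44837582: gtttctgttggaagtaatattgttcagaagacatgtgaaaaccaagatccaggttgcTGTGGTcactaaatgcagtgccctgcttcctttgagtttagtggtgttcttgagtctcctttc
Prdm1 peak 3, chr10:44149440-44149559: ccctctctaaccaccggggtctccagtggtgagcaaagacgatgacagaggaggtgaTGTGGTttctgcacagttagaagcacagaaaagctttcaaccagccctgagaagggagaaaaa

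Runx3 peaks lay in the regions of 8 of the 8 genes, beside 41.1% of all protein-coding genes, and H3K4me1 peaks also in 8 of 8, beside 51.1%. The genes were not chosen blind to these data, so these shares only describe the set. The number of Runx3 peaks was 4 at Id2 and Nfil3, 3 at Prdm1, 2 at Tbx21, Eomes and Gata3, and 1 at Tox and Zeb2. The median over the 8 genes was 2, and over all protein-coding genes 0. The number of H3K4me1 peaks was 16 at Tbx21, 15 at Prdm1, 13 at Nfil3, 9 at Gata3, 3 at Id2 and Tox, and 2 at Eomes and Zeb2, with a median of 6 beside 1 over all genes. The order of the genes thus differed between the lists. Id2 was among those with most Runx3 peaks and few H3K4me1 peaks, and Tbx21 held most H3K4me1 peaks with 2 Runx3 peaks. With pooled peaks there is no spread against which neighbouring counts such as 3 and 4 could be told apart.

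**Figure D1:**
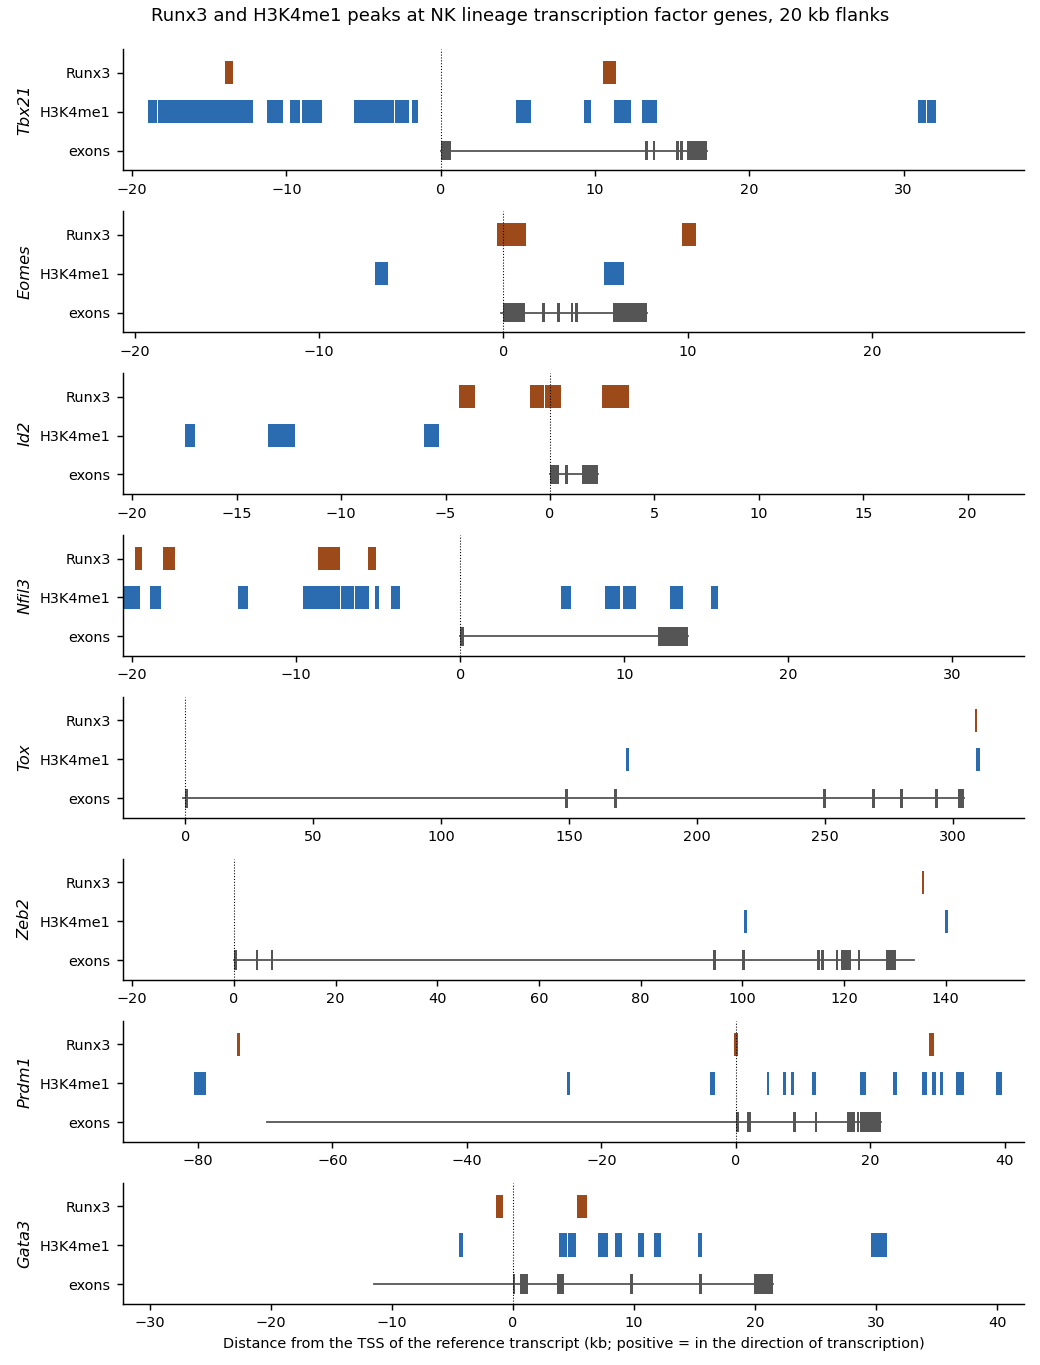
Runx3 peaks (brown), H3K4me1 peaks (blue) and exons of the reference transcript (grey) at each gene, against distance from its TSS in kb, positive in the direction of transcription; each panel has its own scale and spans the gene and its 20 kb flanks. Runx3 peaks lie at the TSS of Eomes, Id2 and Prdm1, and the peaks of Tox and Zeb2 lie beyond the far end of the gene.

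Because long genes can hold more peaks, the counts were also set against the length of the region, which ranged from 42.3 kb (Id2) to 345 kb (Tox). Runx3 peaks per 100 kb were 9.46 at Id2, 7.43 at Nfil3, 4.17 at Eomes, 3.49 at Tbx21, 2.74 at Gata3, 2.28 at Prdm1, 0.575 at Zeb2 and 0.29 at Tox, beside 0.442 in the genome as a whole. In this density Id2 stood above 99.6% and Nfil3 above 99.1% of protein-coding genes, whereas Tox stood above 59.3%, about the share of genes with no Runx3 peak at all. Density favours short genes, since the flanks are fixed. By number of Runx3 peaks, Id2 and Nfil3 each stood above 96.8% of genes, and 723 genes had at least 4. The share of the region that lay inside H3K4me1 peaks was 32.1% at Tbx21, 18.7% at Nfil3, 7.72% at Prdm1, 7.66% at Gata3, 5.8% at Id2, 3.81% at Eomes, 0.551% at Zeb2 and 0.417% at Tox, beside 1.07% of the genome. By coverage Tbx21 stood above 99.7% of genes, and 60 genes, Tbx21 among them, were covered at least as much. Tox and Zeb2, the longest of the 8 regions, were thus near the genome-wide level in Runx3 peaks per 100 kb and under it in H3K4me1 coverage, and the other 6 genes were above it in both.

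**Figure D2:**
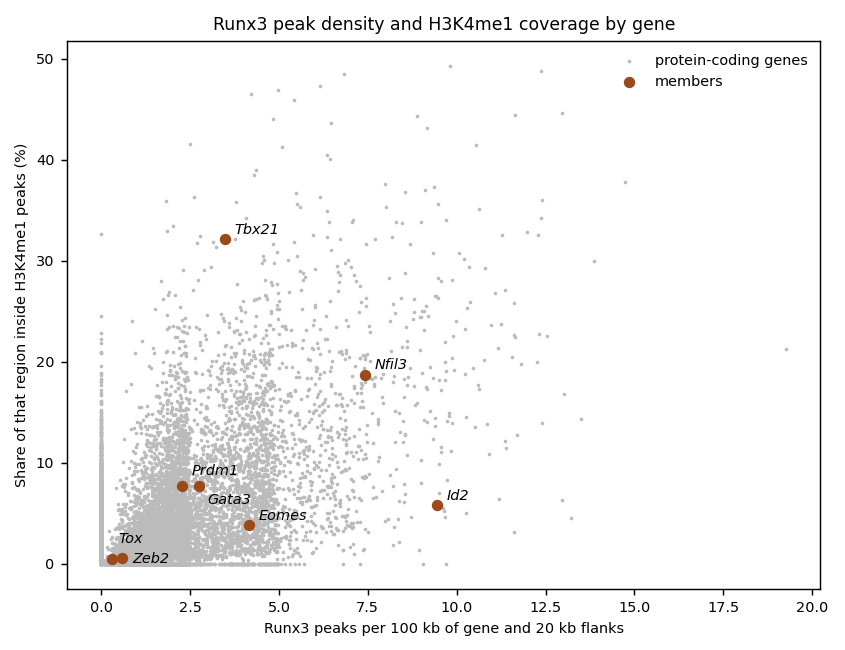
Runx3 peaks per 100 kb (x axis) against the share of the region inside H3K4me1 peaks in percent (y axis), 1 grey point per protein-coding gene and a brown point for each of the 8 genes. Tbx21 is high on the y axis (32.1%), Id2 far along the x axis (9.46), Nfil3 high on both, and Tox and Zeb2 close to the origin.

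Tbx21 encodes T-bet, the T-box factor of NKC maturation and interferon-γ expression (chr11:96959385-96976645, minus strand). Its Runx3 peak 1 (chr11:96990105-96990648) was centred 13731 bp upstream of the TSS and lay wholly inside an H3K4me1 peak of 6166 bp (chr11:96988787-96994952). That H3K4me1 peak ranks at 12 by width among the 34204. Runx3 peak 2 (chr11:96965305-96966150) lay in intron 1, 10918 bp downstream of the TSS, and shared 134 bp with an H3K4me1 peak at its downstream end. Another H3K4me1 peak lay on its other side, so that its centre was flanked by H3K4me1 within 2 kb on both sides and was itself unmarked. This peak held 6 RUNX motifs, 3 of TGTGGT and 3 of TGTGGC. Of the 16 H3K4me1 peaks at Tbx21, 9 lay upstream of the gene, and together the 16 covered 18383 bp. Nearest annotated starts to Runx3 peaks 1 and 2 were those of Gm11572 (12147 bp) and Gm11573 (7480 bp), which lie closer than the start of Tbx21.

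Eomes encodes the other T-box factor of mature NKC (chr9:118387330-118395250, plus strand). Its Runx3 peak 1 (chr9:118387141-118388683) spanned the TSS and reached into the first coding exon. At 1543 bp it was wider than 99% of Runx3 peaks and the widest of the 19, and 64.6% of its bases were G or C. Its RUNX motifs, 1 of TGCGGT and 2 of TGCGGC, all lay outside the central 300 bp. Runx3 peak 2 (chr9:118397134-118397901) lay downstream of the gene, 10055 bp from the TSS, with 1 RUNX motif 8 bp from its centre. Neither peak overlapped H3K4me1, and the nearest H3K4me1 peak was 4217 bp from peak 1 and 3116 bp from peak 2. The 2 T-box genes thus had the same number of Runx3 peaks, 2 on H3K4me1 at Tbx21 and 0 at Eomes, and 16 and 2 H3K4me1 peaks.

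Nfil3 encodes a basic leucine zipper factor without which few NKC form (chr13:53062578-53076442, minus strand). All 4 of its Runx3 peaks lay upstream, centred 5402, 8016, 17754 and 19595 bp from the TSS. Peak 3 (chr13:53083782-53085135), 1354 bp wide, lay wholly inside an H3K4me1 peak of 2264 bp (chr13:53083766-53086029) and held 6 RUNX motifs, all of TGTGGT, though none in its central 300 bp. Peak 4 (chr13:53081595-53082093) overlapped 2 H3K4me1 peaks, 1 at either end, by 174 bp in all, and its centre was unmarked. Peak 1 (chr13:53095817-53096258) shared 285 bp with H3K4me1, and peak 2 (chr13:53093838-53094554) ended 114 bp from it. Of its 13 H3K4me1 peaks, 8 lay upstream of the gene.

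Id2 encodes a helix-loop-helix protein that lacks a DNA-binding region and holds E proteins inactive (chr12:25778666-25780957, minus strand). It is the shortest of the 8 genes, and its 4 Runx3 peaks lay around it. Peak 1 (chr12:25784530-25785315) was centred 3965 bp upstream and peak 2 (chr12:25781227-25781919) 616 bp upstream of the TSS. Peak 3 (chr12:25780416-25781192) covered the TSS and coding sequence of the first exon, and peak 4 (chr12:25777171-25778477), 1307 bp wide, lay just downstream of the gene, 3133 bp from the TSS. Peaks 2 and 3 were joined to 1 when peaks closer than 1 kb were merged. The 4 peaks held 4, 2, 2 and 4 RUNX motifs in that order, and both motifs of peak 2 were TGCGGT. None of the 4 overlapped H3K4me1. The 3 H3K4me1 peaks of Id2 all lay upstream, the nearest 963 bp from Runx3 peak 1 and 5322 bp from the TSS.

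Tox encodes a high-mobility-group protein needed for the development of NKC and other innate lymphoid cells (chr4:6613500-6918704, minus strand). Its 1 Runx3 peak (chr4:6608960-6609523) lay downstream of the gene, 308705 bp from the TSS, and ended 15 bp from an H3K4me1 peak without overlap. The annotated start nearest to this peak was that of Gm11802, 6075 bp away. The TSS of Tox was 172189 bp from the nearest H3K4me1 peak, which lay in intron 3. Beyond the 20 kb limit the Runx3 peak nearest to the TSS lay 160974 bp from it on the upstream side.

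Zeb2 encodes a zinc-finger factor that binds E-boxes and acts late in NKC maturation (chr2:44839154-44972915, minus strand). Its 1 Runx3 peak (chr2:44837077-44837619) also lay downstream of the gene, 135567 bp from the TSS, with a single TGTGGT motif 174 bp from the peak centre. The nearest H3K4me1 peak was 4107 bp from it. The nearest H3K4me1 peak to the TSS of Zeb2 was 100400 bp away, in intron 5.

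Prdm1 encodes Blimp-1, a zinc-finger repressor of effector lymphocytes (chr10:44156983-44248307, minus strand). The annotation gives it a noncoding transcript that starts far upstream, and the TSS used here is that of the coding transcript, at position 44178554. Runx3 peak 2 (chr10:44178266-44178869) was centred 13 bp from that TSS, held 2 TGCGGC motifs and did not overlap H3K4me1. Runx3 peak 1 (chr10:44252246-44252668), the narrowest of the 19 at 423 bp, lay 4150 bp upstream of the noncoding transcript and 73903 bp upstream of the coding TSS. Runx3 peak 3 (chr10:44149076-44149808) lay downstream of the gene, 29112 bp from the TSS, shared 291 bp with H3K4me1 and had another H3K4me1 peak within 2 kb on its other side. Of the 15 H3K4me1 peaks of Prdm1, 1 lay upstream of the gene and the others within or downstream of it.

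Gata3 encodes the zinc-finger factor GATA-3 (chr2:9778705-9811661, minus strand). Its Runx3 peak 1 (chr2:9801054-9801584) lay 1092 bp upstream of the TSS of the reference transcript, within the longer annotated isoform, and held 4 RUNX motifs, all TGCGGC. Runx3 peak 2 (chr2:9794117-9794885) lay in intron 3, 5726 bp from that TSS and 798 bp from the start of a shorter annotated transcript. Neither overlapped H3K4me1. Peak 2 stood between H3K4me1 peaks, 112 bp from one and 960 bp from the other, whereas peak 1 was 2790 bp from the nearest. The 9 H3K4me1 peaks of Gata3 included 0 upstream of the gene.

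Among the 19 Runx3 peaks, 6 (31.6%, 95% Wilson interval 15.4 to 54) overlapped H3K4me1 by at least 1 bp, beside 48.4% of all Runx3 peaks, a share inside that interval. Such intervals cover counting error only, since peaks are not replicates and those of 1 gene share a locus. The 6 peaks belonged to Tbx21 (2 of 2), Nfil3 (3 of 4) and Prdm1 (1 of 3), so that 3 of the 8 genes, beside 20.5% of all genes, had a Runx3 peak on H3K4me1. A further 4 of the 13 peaks that did not overlap had H3K4me1 within 1 kb. Counted this wider way, 52.6% of the 19 lay at H3K4me1, beside 61.3% of all Runx3 peaks. The centres of 4 peaks (Tbx21 peak 2, Nfil3 peak 4, Prdm1 peak 3 and Gata3 peak 2) lay between H3K4me1 peaks within 2 kb on both sides, which is 21.1% of the 19 (95% Wilson interval 8.51 to 43.3) beside 13.9% of all Runx3 peaks. Seen from the mark, 7 of the 63 H3K4me1 peaks overlapped Runx3 (11.1%), beside 19.9% of all H3K4me1 peaks.

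The peaks were then divided by distance from a TSS. Of the 19 Runx3 peaks, 5 were centred within 1 kb of an annotated start of their own gene, 2 at Id2 and 1 each at Eomes, Prdm1 and Gata3 (peak 2), and 0 of these 5 overlapped H3K4me1. Among all Runx3 peaks that close to a protein-coding start, 18.7% overlapped. Of the 14 peaks farther away, 6 (42.9%, 95% Wilson interval 21.4 to 67.4) overlapped, beside 57.5% of all Runx3 peaks farther away. Both background shares lay within the intervals of the shares at the 8 genes, that of 0 of 5 reaching to 43.4%, so the few peaks here cannot be told apart from the rest of the list in this respect. A Runx3 peak within 1 kb of an annotated start was found at 4 of the 8 genes and at 13.3% of all protein-coding genes. No H3K4me1 peak lay within 1 kb of the reference TSS at 8 of the 8 genes, and the same held at 74.5% of protein-coding genes with an H3K4me1 peak in the region. The nearest H3K4me1 peak was 1469 bp from the TSS at Tbx21, 3115 bp at Prdm1, 3689 bp at Nfil3, 3837 bp at Gata3, 5322 bp at Id2 and 5439 bp at Eomes.

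**Figure D3:**
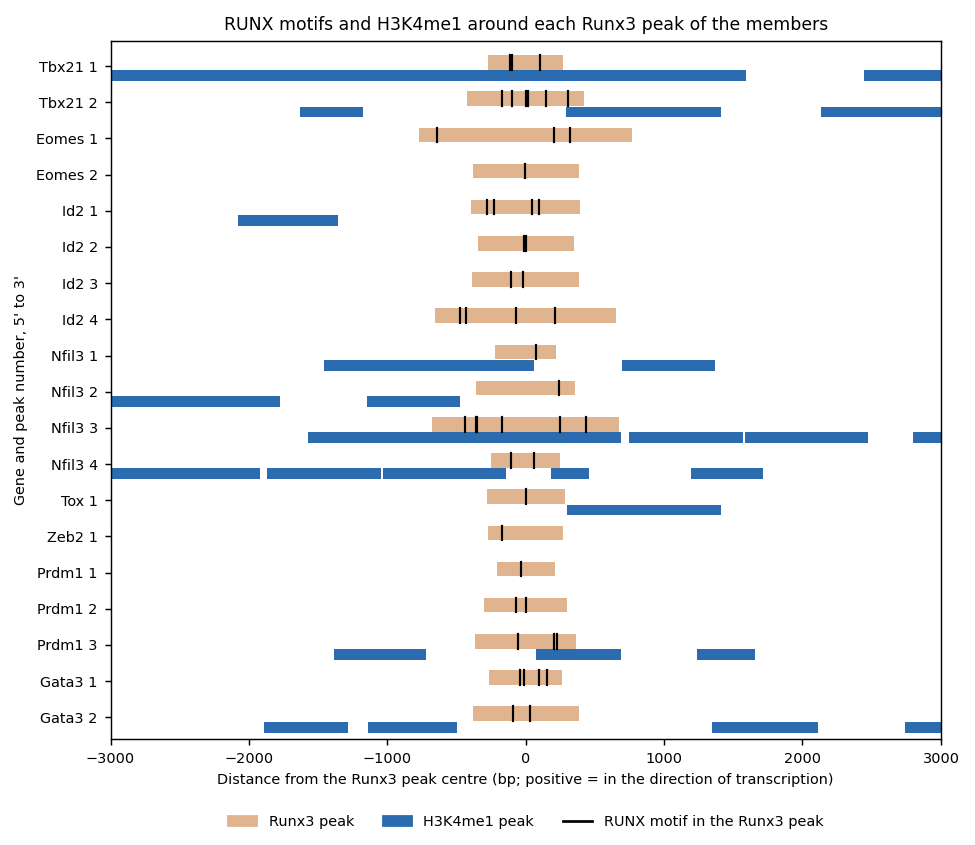
The 19 Runx3 peaks (tan), aligned on their centres, with their RUNX motifs (black ticks) and the H3K4me1 peaks around them (blue), against distance from the centre in bp, positive in the direction of transcription. Of the 19, 6 overlap blue bars, and 4 centres (21.1%, beside 13.9% of all Runx3 peaks) lie between blue bars within 2 kb on both sides.

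By place, 8 of the 19 Runx3 peaks lay upstream of their gene, 5 downstream, 2 over a coding exon, 2 in an intron, and 2 inside the gene record but upstream of the reference transcript. For 15 of the 19 the nearest annotated start was that of the gene itself, the exceptions being both peaks of Tbx21 and those of Tox and Zeb2. Their widths, with a median of 717 bp and a range of 423 to 1543 bp, were close to those of all Runx3 peaks, with a median of 704 bp. At the 20 kb limit, the last peak inside was Nfil3 peak 1, centred 19595 bp upstream, and the first peaks outside lay 26.6 kb upstream of Tbx21 and 26.7 kb downstream of Prdm1, both on H3K4me1.

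A RUNX motif was present in 19 of 19 Runx3 peaks, beside 96.0% of all Runx3 peaks, and in the central 300 bp of 15 of 19 (78.9%), beside 86.4%. The 4 without a central motif were Eomes peak 1, Nfil3 peaks 2 and 3 and Zeb2 peak 1. The peaks held between 1 and 6 motifs, with a median of 2.89 per kb beside 3.83 over all Runx3 peaks. Of 49 motifs in all, 21 (42.9%) were TGTGGT, 12 (24.5%) TGTGGC, 6 (12.2%) TGCGGT and 10 (20.4%) TGCGGC, whereas in all Runx3 peaks these were 51.3%, 31.0%, 8.54% and 9.14%. The 10 TGCGGC motifs sat in 4 peaks, with 4 at Gata3 peak 1 and 2 each at Eomes peak 1, Id2 peak 1 and Prdm1 peak 2. Counted by peak, TGCGGC was present in 21.1% of the 19 and in 19.2% of all Runx3 peaks.

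Motifs of other factors were searched as letters on both strands in the central 300 bp. A match is a description of the sequence and not a bound site. The ETS motif (AGGAAG or AGGAAA, and the same with C in first place, CGGAAG or CGGAAA) was found in 17 of 19, beside 71.9% of all Runx3 peaks, and was missing from Tbx21 peak 2 and Gata3 peak 1. A RUNX and an ETS motif stood within 50 bp of each other in 8 of 19 (42.1%), beside 41.1% of all Runx3 peaks, and those 8 included all 4 peaks of Id2. The AP-1 motif was found in 4 of 19 (Tbx21 peak 2, Eomes peak 2, Nfil3 peak 2 and Gata3 peak 1), beside 16.6%.

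Letters read by the families of some of the 8 factors were searched too, along with the STAT5 motif. None was searched for Tox. The T-box motif (AGGTGTGA, AGGTGTTA or AGGTGTGG) was found in 1 of 19, Nfil3 peak 4, beside 7.33% of all Runx3 peaks, and in 0 of the 4 peaks of Tbx21 and Eomes. The E-box CAGGTG or its reverse complement CACCTG, read by the E proteins that Id2 holds back and by Zeb2, was found in 5 of 19, beside 21.8%, with 4 copies in Id2 peak 4. The GATA motif (AGATAA or TGATAA) was found in 5 of 19, beside 17.9%, and in 0 of the 2 peaks of Gata3. The letters GAAAGT, shared by Blimp-1 and interferon regulatory factors, were found in 7 of 19 (36.8%, 95% Wilson interval 19.1 to 59), beside 15.0%, among them peaks 1 and 3 of Prdm1. The NFIL3 motif (TTATGTAA, TTACGTAA or TTACATAA) was found in 0 of 19, beside 0.659%, and the STAT5 motif TTCNNNGAA in 3 of 19, beside 9.76%. T-box letters can overlap an E-box and, in the form AGGTGTGG, a RUNX motif, and ETS letters can overlap GAAAGT. Of these 8 motifs, GAAAGT was the one whose background share lay outside the interval of the 19 peaks, with no test made and 8 motifs examined.

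To place the 8 genes, their paralogues were counted by the same rule. This list and those below were likewise chosen with earlier results of these data known. Of 20 paralogues, 7 (35.0%) had a Runx3 peak and 14 an H3K4me1 peak, with medians of 0 and 2 peaks. Among all protein-coding genes the shares were 41.1% and 51.1%, so the paralogues were near the general share for Runx3 and above it for H3K4me1. The T-box genes Tbr1, Tbx1 and Tbx2, the Id genes Id1, Id3 and Id4, and Gata1, Gata2, Gata4, Gata5 and Gata6 had 0 Runx3 peaks each, so that at Tbx21, Eomes, Id2 and Gata3 the Runx3 peaks were found at the member and not at the listed relatives. The other families differed from this. Tox2 had 4 Runx3 peaks, 3 of them on H3K4me1, and Tox4 had 2, both more than Tox with 1, whereas Tox3 had 0 Runx3 and 0 H3K4me1 peaks. Zeb1 had 2 beside 1 at Zeb2. The relatives of Nfil3 had 2 (Tef), 1 (Dbp) and 0 (Hlf) beside 4, and those of Prdm1 had 2 (Prdm2) and 1 (Prdm16) beside 3.

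**Figure D4:**
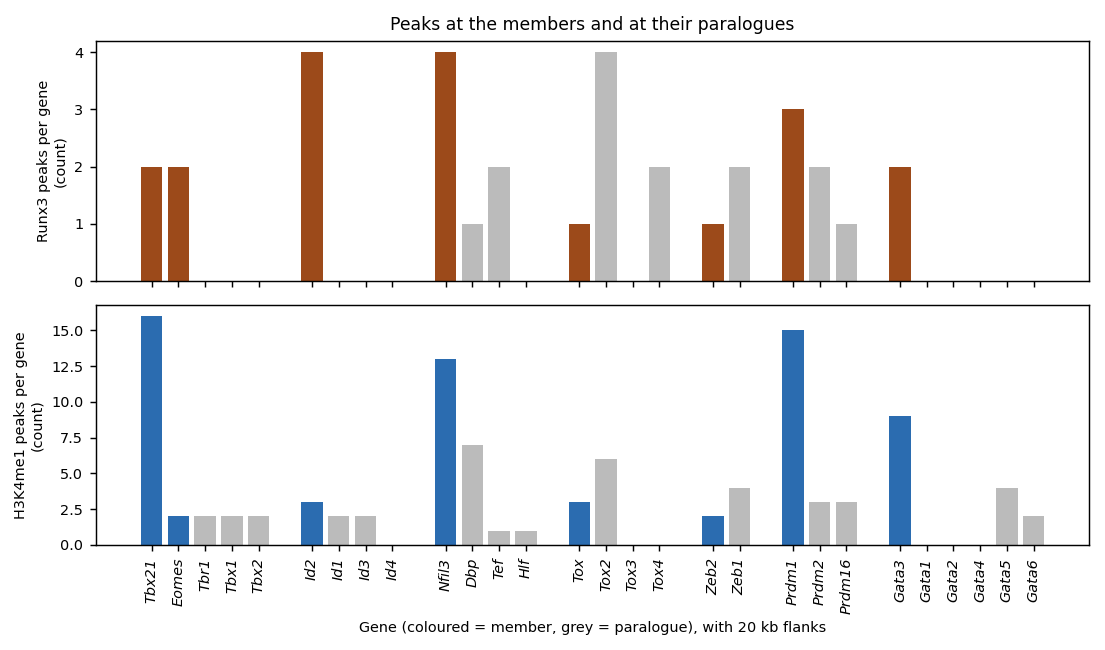
Number of Runx3 peaks (upper panel) and of H3K4me1 peaks (lower panel) in the gene and its 20 kb flanks, for the 8 genes (coloured bars) and 20 paralogues (grey bars), grouped by family. The relatives of Tbx21, Eomes, Id2 and Gata3 have no Runx3 bar, and Tox2 has 4 Runx3 peaks beside 1 at Tox.

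Among 30 other transcription factors of NKC and innate lymphoid cells, 25 (83.3%) had a Runx3 peak, 28 an H3K4me1 peak and 17 a Runx3 peak on H3K4me1. These stand beside 41.1%, 51.1% and 20.5% of all protein-coding genes. Their medians were 1.5 Runx3 and 6.5 H3K4me1 peaks, beside 2 and 6 at the 8 genes. Bach2 with 7 and Bhlhe40 with 6 held the most Runx3 peaks, and Ikzf2 and Stat5a were among those with 0. Among 22 transcription factors of other lineages, 7 (31.8%) had a Runx3 peak, beside 41.1% of all protein-coding genes. An H3K4me1 peak was found at 16 of the 22, a larger share than the 51.1% of all protein-coding genes. A raised share with H3K4me1 was thus not particular to factors of NKC. The medians of the 22 were 0 and 1, and Spi1 held the most Runx3 peaks with 3. The genes closest to Id2 in Runx3 and H3K4me1 peaks per 100 kb, by Euclidean distance over all protein-coding genes, were 2010016I18Rik (9.66 and 7.24), Gba2 (9.63 and 7.7) and Spp1 (8.71 and 6.53), beside 9.46 and 7.09 at Id2.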

How the data were processed

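Runx3-bound and H3K4me1-marked regions of IL-2-activated NKC were taken from 2 peak lists. Alignment by the authors was with ELAND to mm9. Uniquely placed reads of a group were joined, and MACS called peaks over NIS after scaling down the larger set. The deposited columns are peak boundaries in bp without score, count or p-value, and a stricter threshold of the authors' caller could not be applied. Starts are counted from 0 in the lists and given here from 1.

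Genes were those of GENCODE M1 and the sequence that of NCBIM37, both on the build of the peaks. Spi1 and Zfp683 are named Sfpi1 and Gm13060 there and were matched through RefSeq synonyms, and Gfi1 is annotated there as a processed transcript. The reference TSS was that of the transcript with the longest coding sequence. Overlap needed 1 bp. Peaks near a TSS were those centred within 1 kb of any annotated start of the gene. Shares are given with 95% Wilson intervals. No test was made, since the Runx3 list pools its libraries and H3K4me1 has 1. The genes named were the 8 members with each of their peaks, the paralogues by family, and from the other lists the 2 genes with most Runx3 peaks and up to 2 with 0. A further gene of the paralogue list is not reported here. The members and lists were chosen with earlier results of these data known.

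Alternatives were flanks of 5 or 50 kb, 20 kb around the gene start, joined peaks, wider peaks, other overlap rules, smaller motif windows and other TSS rules. Counting was tested on simulated data. Software was samtools 1.23.1, pysam 0.24.0, matplotlib 3.10.9, scipy 1.17.1 and numpy 2.4.6 under python 3.11.15. Resting NKC, CD8-TC and expression arrays were not analysed here.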

Additional observations from a re-analysis of the deposited data

How the results depend on the processing

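No paired analysis was possible because the Runx3 list pools the libraries of Runx3 and of NIS and the H3K4me1 list comes from 1 library, so that no library could be left out and no replicate error computed. With flanks of 5 kb in place of 20 kb, the 8 genes held 13 Runx3 peaks and 37 H3K4me1 peaks, Nfil3 held 0 Runx3 peaks so that 7 of the 8 genes had one (28.8% of all protein-coding genes), and 7.69% of the Runx3 peaks (1 of 13) overlapped H3K4me1. Within 20 kb of the gene start, 6 of the 8 genes had a Runx3 peak (31.5% of all protein-coding genes) and there were 38 H3K4me1 peaks. Joining peaks closer than 1 kb left 39 H3K4me1 peaks and 18 Runx3 peaks, and leaving out peaks narrower than the median of their list left 26 and 10, with Runx3 peaks at 6 of the 8 genes (27.7% of all protein-coding genes). A RUNX motif was found in 78.9% of the Runx3 peaks in the central 200 bp and likewise in the central 300 bp. Taking the start of the gene record as the TSS, or 500 bp as the limit, left 3 Runx3 peaks near a TSS in place of 5. Up to the neighbouring protein-coding genes, a region chosen after seeing the data, there were 89 Runx3 and 244 H3K4me1 peaks. The other alternatives stayed within 1.5 times the values in the report, or within their intervals. Overlap with H3K4me1 stayed below that of all Runx3 peaks when 50% of the peak had to be covered (15.8% beside 31.6%) or the centre had to lie inside the mark (15.8% beside 28.2%). It was 46.2% (12 of 26) with 50 kb flanks and 51.7% (46 of 89) up to the neighbouring genes, beside 48.4% of all Runx3 peaks, so the lower share did not hold in wider regions. Of the 16 counts for single genes, 12 moved by over 1.5 times without the narrower peaks, 8 with 5 kb flanks, 7 within 20 kb of the gene start and 6 with 50 kb flanks. Without scores, weak and strong peaks could not be told apart.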

Other observations

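The regions between the neighbouring protein-coding genes were looked at after the values in the report were seen. Id2 is the only annotated protein-coding gene in the 1246 kb between Kidins220 and Rnf144a. This span held 33 Runx3 peaks, 22 of them on H3K4me1, and 115 H3K4me1 peaks, although the 4 Runx3 peaks within 20 kb of Id2 overlapped no called H3K4me1 peak. The other 29 Runx3 peaks all lay upstream, 21 of them 100 to 500 kb from the TSS, of which 17 were on H3K4me1. The densest 100 kb held 13 Runx3 peaks, 68.8 to 169 kb upstream. For 28 of the 33 the start of Id2 was nearer than the starts of Kidins220 and Rnf144a. Which gene these regions act on was not measured. In the whole Runx3 list, too, overlap with H3K4me1 was lower near a start. It was 18.7% within 1 kb of a protein-coding start and 57.5% farther away. That split is at 1 kb and not at the 20 kb flank. Peaks 1 and 4 of Id2, 3965 and 3133 bp from the TSS, fall on its far side and did not overlap. Whether the contrast across the 20 kb limit is particular to Id2 was not tested.

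Eomes showed an arrangement like that at Id2, and here too the whole list was not split at 20 kb for comparison. Its span of 356 kb held 9 Runx3 peaks, and the 7 outside the 20 kb flanks lay 53.9 to 121 kb upstream, 5 of them on H3K4me1, beside 0 of the 2 nearer peaks. At Prdm1 the span held 13 Runx3 peaks, 6 on H3K4me1, and at Nfil3 7, 5 on H3K4me1. Tox, Zeb2 and Gata3 lie in spans of 1689, 3886 and 2834 kb that held 9, 9 and 7 Runx3 peaks, or 0.533, 0.232 and 0.247 per 100 kb. At Tbx21 the span held 2 Runx3 peaks, those already described, in 67.3 kb.

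The 9 bases between paired RUNX motifs at Tbx21 and Id2 were also noticed in the data. Of 10 neighbouring pairs up to 50 bases apart in the 19 peaks, 3 had this spacing, and the motifs of these pairs stood in the same orientation at Tbx21 peak 2 and in opposite orientations at Tbx21 peak 1 and Id2 peak 2. Over all Runx3 peaks, 257 of 9405 such pairs (2.73%) had 9 bases between them, rank 6 among 51 spacings, and 1 base was the most frequent spacing with 326 pairs (3.47%).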
